A study of Mus musculus with 10 samples.

Results

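The nuclear genes of oxidative phosphorylation were followed in the hippocampus of mice whose meningeal lymphatic vessels had been ablated with Visudyne. Members were the protein-coding genes with symbols beginning Nduf followed by a, b, c, s or v, Uqcr, Cox4 to Cox8 or Atp5, with the succinate dehydrogenase genes Sdha to Sdhd, Cyc1 and Cycs. The annotation holds 96 such genes, and 93 of them had a row in the table of 28871 genes. Atp5g2, Cox8c and a second identifier of Atp5o had none and are not analysed here. The 93 members comprise 36 subunits of complex I, 8 assembly factors of complex I, 4 genes of complex II, 10 of complex III with cytochrome c, 19 of complex IV and 16 of complex V.

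The Visudyne group consisted of 5 libraries, numbered 3, 6, 9, 12 and 15. Visudyne is a formulation of verteporfin, a photosensitiser, and was given into the cisterna magna and activated by 689-nm red light over the skull. The 5 control libraries, vehicle 1, 4, 7, 10 and 13, came from mice given the vehicle by the same route. All mice were wild-type C57BL/6J males of 2 months. The procedure was carried out a second time 2 weeks after the first, and the whole hippocampus was taken 2 weeks later, with no gene deleted or added in either group. How complete the ablation was in each mouse was not tested here. The sources used here do not say whether each library is a single animal, so p-values measure the spread between these libraries.

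Oxidative phosphorylation passes electrons from NADH and succinate through complexes I and II to ubiquinone, complex III, cytochrome c and complex IV, where oxygen is reduced. Complexes I, III and IV pump protons across the inner mitochondrial membrane, and complex V uses the returning protons to make ATP. Most subunits are encoded in the nucleus and are assembled with a small set encoded by mitochondrial DNA. In the hippocampus, as elsewhere in the brain, this pathway supplies most of the ATP used for ion pumping and synaptic transmission.

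No nuclear oxidative phosphorylation gene passed the test for a difference between Visudyne and vehicle hippocampus. By edgeR's quasi-likelihood test with Benjamini-Hochberg adjustment over 19093 genes, 0 of the 92 members tested were called higher, against 0.021% of all genes, and 0 were called lower, against 0.0%. At an unadjusted p under 0.05 the count was also 0 of 92, where 1.7% of all genes passed. DESeq2 and limma voom likewise called 0 members, and had 0 at an unadjusted p under 0.05. All 5 Visudyne libraries lay above all 5 vehicle libraries in 0 members, against 0.319% of all genes, and below them in 0 members, against 0.115%. The smallest unadjusted p of a member was 0.121, for Cox7b2, and every member's adjusted p was 0.9999 by edgeR.

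The precision behind this was good for most members. Of the 92, 83 had a median count of at least 150, and their log2 fold changes lay between -0.11 and 0.076, which is 7.10% lower to 5.39% higher in Visudyne hippocampus. Over all of their 95% intervals, the lowest bound was 0.801-fold and the highest 1.20-fold. The members as a whole took 0.646% to 0.741% of the 51165271 to 68895223 counts per library. Levels are given as CPM, counts scaled to a common total that includes edgeR's TMM factors. In bulk hippocampus, fewer cells of a type and less RNA per cell cannot be told apart.

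**Figure D1:**
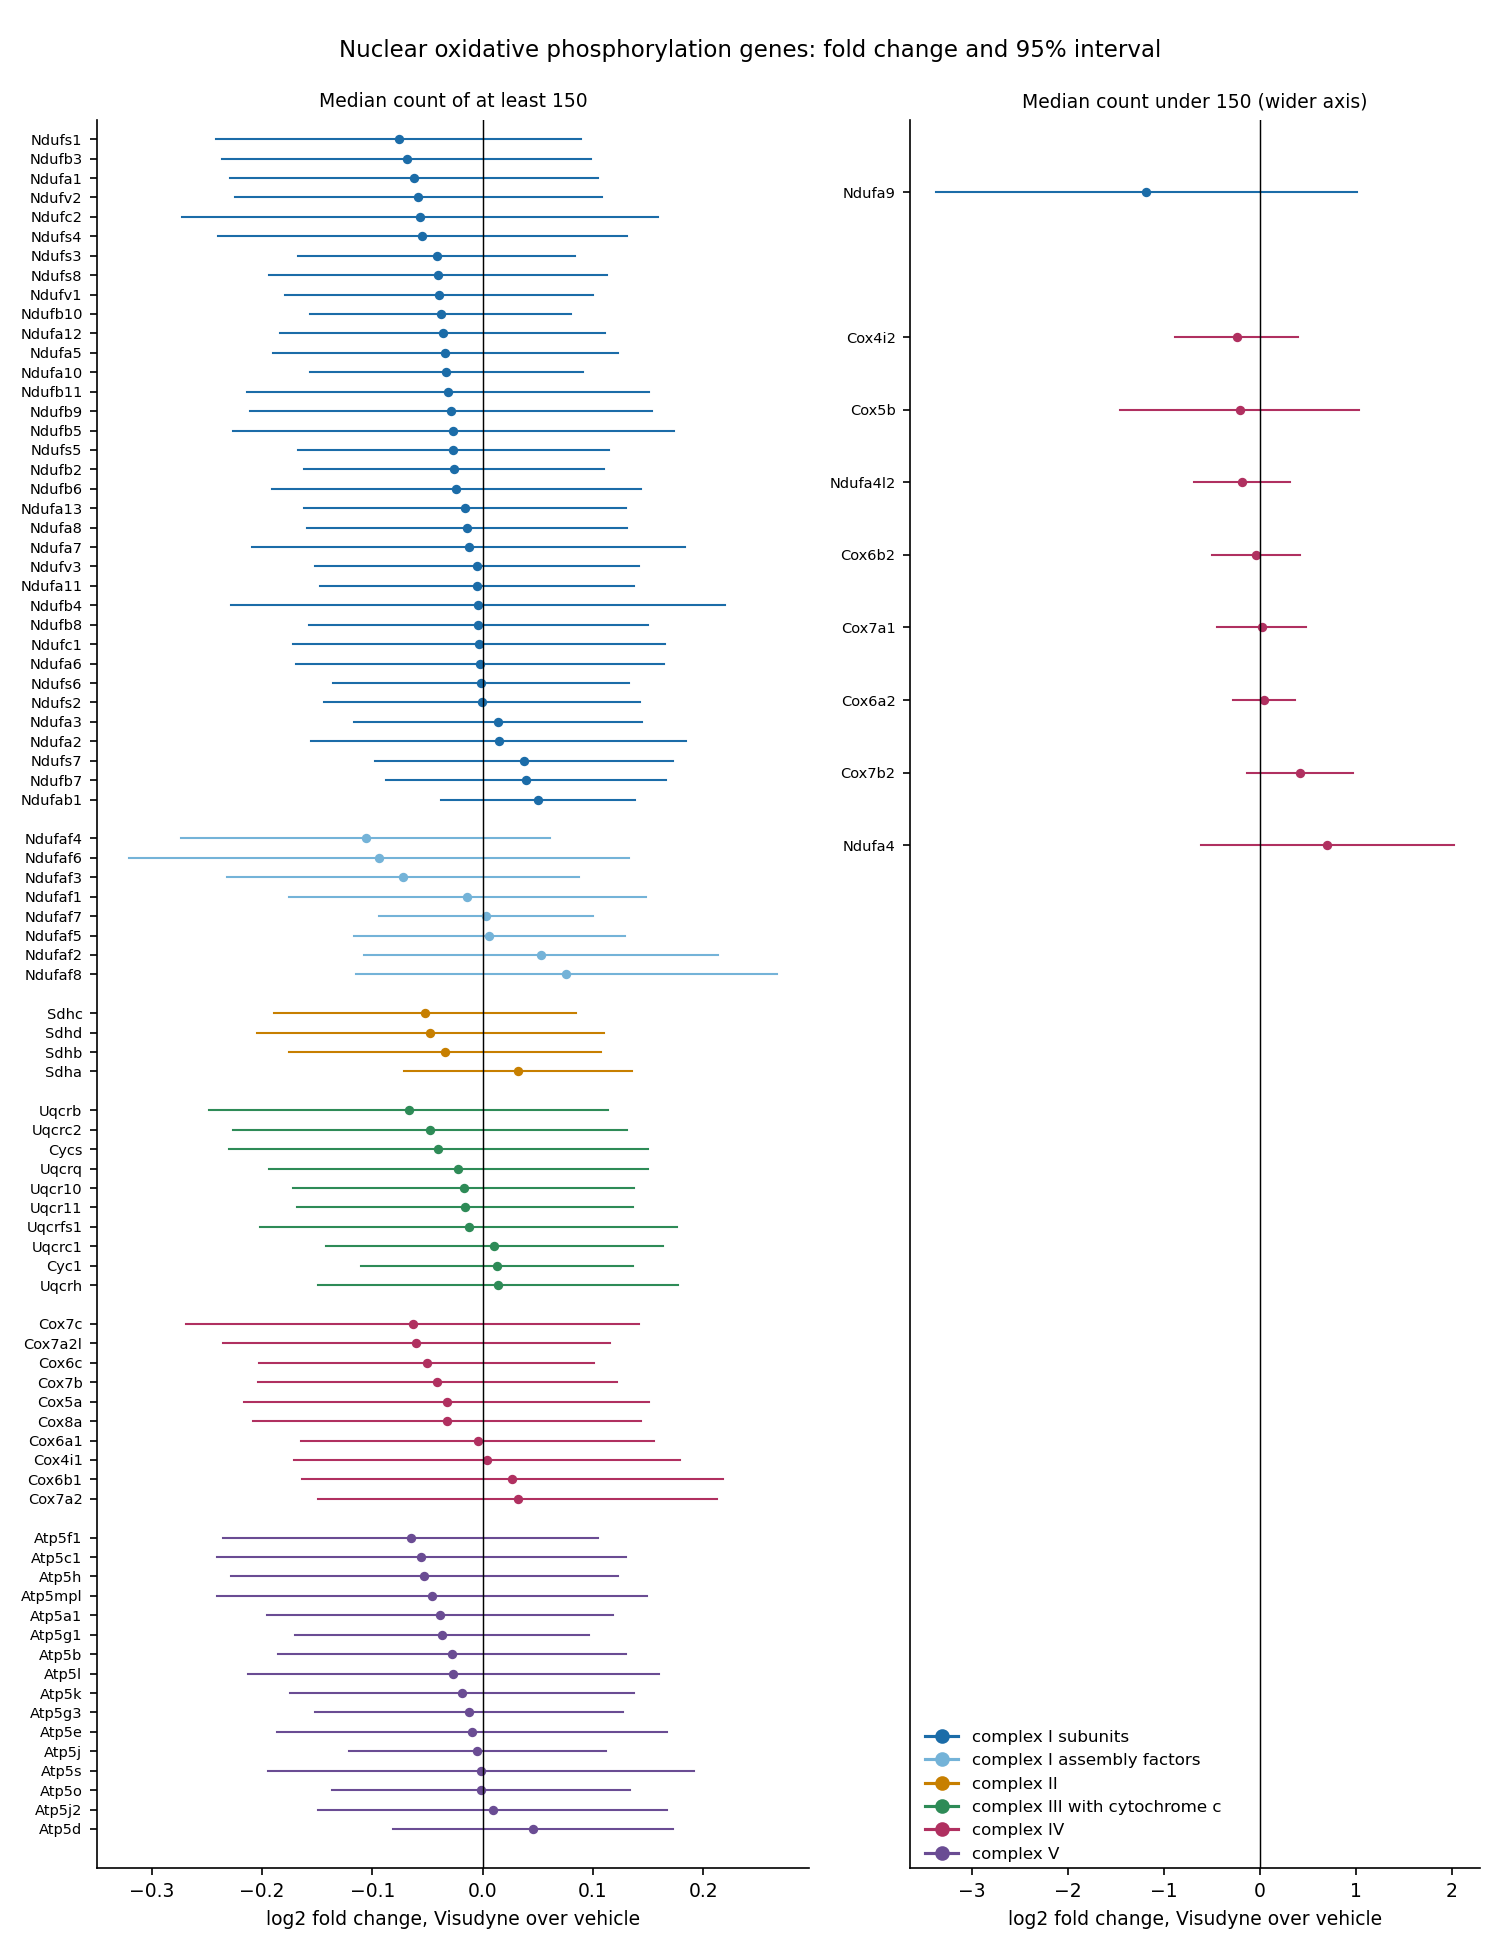
Log2 fold change of each tested member, Visudyne over vehicle (n = 5 libraries each), with its 95% interval from edgeR, ordered within each complex from lowest to highest. Members with a median count of at least 150 are on the left and 9 rarer members are on the right, on a wider axis. Every interval crosses 0.

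Complex I takes electrons from NADH. Of its 36 subunit genes, 5 had a fold change above 0 and 31 below, with a median of -0.027 on the log2 scale, and none passed the test. Among the 7 core subunits, which carry the flavin and iron-sulfur clusters, Ndufs1 had the smallest p. Ndufs1, an iron-sulfur subunit of the electron input arm, lies on the minus strand of chromosome 1 (mm10, 63143596 to 63176833). It had 135, 120, 129, 149 and 113 CPM in Visudyne libraries 3, 6, 9, 12 and 15, against 148, 130, 142, 139 and 121 CPM in vehicle libraries 1, 4, 7, 10 and 13. The groups overlapped, since 1 Visudyne library exceeded every vehicle library and 2 were below them all. The log2 fold change was -0.076 ± 0.076 (SE, unadjusted p = 0.337 by edgeR).

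Accessory subunits surround the core. Ndufab1, the mitochondrial acyl carrier protein, had 28.7, 28.4, 29.6, 28.7 and 29.1 CPM in the Visudyne libraries, against 28.6, 27.2, 28.9, 28.0 and 26.7 CPM in the vehicle libraries. It was among the steadiest members, and 2 Visudyne libraries, 9 and 15, lay above all vehicle libraries. Its log2 fold change was 0.051 ± 0.040 (SE, unadjusted p = 0.235 by edgeR). Ndufb7, of the membrane arm, averaged 34.2 ± 1.73 CPM in Visudyne and 33.2 ± 2.48 CPM in vehicle hippocampus (SD, n = 5 each).

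The 8 assembly factors of complex I are absent from the finished enzyme and help to build it. Their fold changes were 4 above and 4 below 0, with a median of -0.0055 on the log2 scale. Ndufaf4, which acts in early assembly together with Ndufaf3, had 29.8, 23.8, 29.3, 31.3 and 26.4 CPM in the Visudyne libraries, against 30.4, 29.3, 32.5, 31.9 and 27.2 CPM in the vehicle libraries. Visudyne 6 and 15 lay below every vehicle library and the other Visudyne libraries within their range. The log2 fold change was -0.11 ± 0.077 (SE, unadjusted p = 0.192 by edgeR), the lowest of the 83 members with a median count of at least 150. Ndufaf3 averaged 13.8 ± 0.835 CPM in Visudyne and 14.5 ± 1.50 CPM in vehicle hippocampus (SD, n = 5 each). Ndufaf2 and Ndufaf8, also assembly factors, had log2 fold changes of 0.053 ± 0.074 and 0.076 ± 0.088 (SE).

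Complex II, succinate dehydrogenase, is encoded wholly in the nucleus and also belongs to the tricarboxylic acid cycle. Sdha, the flavoprotein that oxidises succinate, had 256, 242, 243, 261 and 224 CPM in the Visudyne libraries, against 244, 236, 245, 244 and 230 CPM in the vehicle libraries. The Visudyne values spread on both sides of the vehicle values, and the log2 fold change was 0.032 ± 0.048 (SE, unadjusted p = 0.516 by edgeR). The iron-sulfur subunit gene Sdhb averaged 78.7 ± 6.53 CPM in Visudyne and 80.6 ± 5.52 CPM in vehicle hippocampus. The membrane anchor gene Sdhc averaged 43.2 ± 3.00 CPM in Visudyne and 44.8 ± 3.23 CPM in vehicle hippocampus, and its partner Sdhd 55.6 ± 4.69 CPM in Visudyne and 57.4 ± 5.19 CPM in vehicle hippocampus (SD, n = 5 each). The summed level of the 4 genes was 423 ± 28.4 CPM in Visudyne and 423 ± 18.9 CPM in vehicle hippocampus.

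Complex III hands electrons from ubiquinol to cytochrome c. Of its 10 genes with cytochrome c, 3 had a fold change above 0 and 7 below, with a median of -0.017 on the log2 scale. Uqcrc1, a core subunit, had 152, 140, 139, 150 and 127 CPM in the Visudyne libraries, against 162, 137, 126, 145 and 133 CPM in the vehicle libraries. The Visudyne values lay within the range of the vehicle values, with a log2 fold change of 0.011 ± 0.070 (SE, unadjusted p = 0.881 by edgeR). Uqcrc2, the other core subunit, averaged 144 ± 15.8 CPM in Visudyne and 149 ± 13.8 CPM in vehicle hippocampus. Uqcrb, a ubiquinone-binding subunit, averaged 47.3 ± 5.48 CPM in Visudyne and 49.5 ± 4.24 CPM in vehicle hippocampus. The hinge subunit gene Uqcrh had a higher mean in Visudyne, 87.0 ± 9.08 CPM, than in vehicle hippocampus, 86.1 ± 6.71 CPM, by less than either SD. Cyc1, which holds the haem of complex III that reduces cytochrome c, averaged 63.7 ± 3.87 CPM in Visudyne and 63.1 ± 4.03 CPM in vehicle hippocampus. Cycs, the soluble carrier to complex IV, averaged 71.0 ± 8.0 CPM in Visudyne and 73.0 ± 7.53 CPM in vehicle hippocampus.

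Complex IV, cytochrome c oxidase, is the oxygen-consuming step, and several of its nuclear subunits have tissue-specific alternatives. Of its 18 tested genes, 7 had a fold change above 0 and 11 below, with a median of -0.032 on the log2 scale. Cox4i1, the regulatory subunit gene used in most tissues, had 252.4, 231, 228, 266 and 201 CPM in the Visudyne libraries, against 274, 225, 222, 231 and 223 CPM in the vehicle libraries. Vehicle 1 was the highest of the 10 libraries and Visudyne 15 the lowest, and the log2 fold change was 0.0038 ± 0.080 (SE, unadjusted p = 0.965 by edgeR). Cox8a, a small structural subunit, had 218, 205, 192, 228 and 181 CPM in the Visudyne libraries, against 249, 198, 192, 206 and 201 CPM in the vehicle libraries. The same libraries were at the ends of its range. Cox7a2l averaged 103 ± 11 CPM in Visudyne and 108 ± 10.04 CPM in vehicle hippocampus (SD, n = 5 each).

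Complex V has a catalytic head, a rotating ring of subunit c, connecting stalks and membrane subunits. Of its 16 genes, 2 had a fold change above 0 and 14 below, with a median of -0.023 on the log2 scale. Atp5b, the catalytic beta subunit on the plus strand of chromosome 10 (mm10, 128083273 to 128090391), had 889, 788, 795, 885 and 720 CPM in the Visudyne libraries. In the vehicle libraries it had 944, 785, 797, 856 and 775 CPM. The log2 fold change was -0.028 ± 0.073 (SE, unadjusted p = 0.708 by edgeR), and again vehicle 1 was the highest and Visudyne 15 the lowest library. Among the stalk genes, Atp5f1 averaged 170 ± 19.2 CPM in Visudyne and 178 ± 13.5 CPM in vehicle hippocampus, and Atp5h 108 ± 11.6 CPM in Visudyne and 113 ± 10.6 CPM in vehicle hippocampus. Atp5d, the delta subunit, averaged 77.9 ± 4.57 CPM in Visudyne and 75.5 ± 5.28 CPM in vehicle hippocampus. The membrane subunit gene Atp5j2 averaged 58.3 ± 5.27 CPM in Visudyne and 57.9 ± 4.89 CPM in vehicle hippocampus (SD, n = 5 each).

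Fold changes below 0 outnumbered those above it, and this split changed with single libraries and with a covariate. Of the 92 members, 70 were below 0, while 48.9% of all tested genes were, and the median log2 fold change was -0.025 for the members and 0.0022 for all genes tested. Since 86 of the 92 lay within 1 SE of 0, the signs are weakly determined one by one. Leaving out a single library moved the count below 0 in both directions: it was 29 of 92 without vehicle 1 and 33 without Visudyne 15, with medians of 0.024 and 0.015, but 80 without Visudyne 3 or Visudyne 12, 78 without vehicle 7 and 76 without vehicle 4. With all libraries kept and the sample number from the labels as a covariate, 43 of 92 members were below 0, against 48.6% of all genes, and the median was 0.0018. Without both vehicle 1 and Visudyne 15, the libraries with the highest and lowest share of counts in the members, 7 of 92 were below 0; that choice of libraries fixes the direction of the shift, so the value is only a description.

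The variation that these libraries carried was shared by the more abundant members of every complex. The summed level of the 93 members was 7296, 6613, 6734, 7558 and 6043 CPM in Visudyne libraries 3, 6, 9, 12 and 15, against 7830, 6618, 6723, 7121 and 6535 CPM in vehicle libraries 1, 4, 7, 10 and 13. The highest library exceeded the lowest 1.30-fold, and both groups held high and low libraries. Of the 66 members with a mean log2 CPM of at least 5, all 66 were above their own 10-library mean in Visudyne 12 and in vehicle 1, and 0 were in Visudyne 15. Visudyne 3 had 65 and vehicle 10 had 58 above, whereas vehicle 4 had 1, vehicle 13 had 6 and Visudyne 6 had 7. None of the 8 assembly factors of complex I is among these 66. The summed level of the assembly factors was highest in vehicle 10, at 123.98 CPM, with 123.64 CPM in vehicle 1. It was lowest in Visudyne 6, at 108.20 CPM, with 108.69 CPM in Visudyne 15. Over all 93 members, 61 were highest in vehicle 1 and 19 in Visudyne 12, and 70 were lowest in Visudyne 15.

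With group means removed, the median Pearson correlation between 2 of these 66 members over the 10 libraries was 0.90, and 100% of the 2145 pairs were positive. Between a member and another gene of that level, the median was 0.58 over 4984 genes. These correlations share libraries, scaling and depth, and are given as a description. The library order was not limited to the members: the summed levels of the tricarboxylic acid cycle, glycolysis and carrier lists were also lowest in Visudyne 15, at 1815, 6244 and 717 CPM, and highest in vehicle 1, at 2168, 7773 and 901 CPM. Complexes IV and V had median correlations of 0.93 within the complex, complex II 0.89, complex I subunits 0.88 and complex III with cytochrome c 0.87. Cox7a2l followed the mean of the other members most closely, with a correlation of 0.997, and Cox6b1, an intermembrane-space subunit of complex IV, reached 0.995. Ndufa10, an accessory subunit of complex I, followed it least, at 0.68, and Atp5d came next, at 0.73.

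Mean deviations from each gene's own mean were of similar size in every complex. In vehicle 1 they were 0.18 log2 units for complex I subunits, 0.15 for complex II, 0.18 for complex III with cytochrome c, 0.22 for complex IV and 0.18 for complex V. In Visudyne 15 they were -0.18, -0.17, -0.19, -0.23 and -0.19 for the same complexes.

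**Figure D2:**
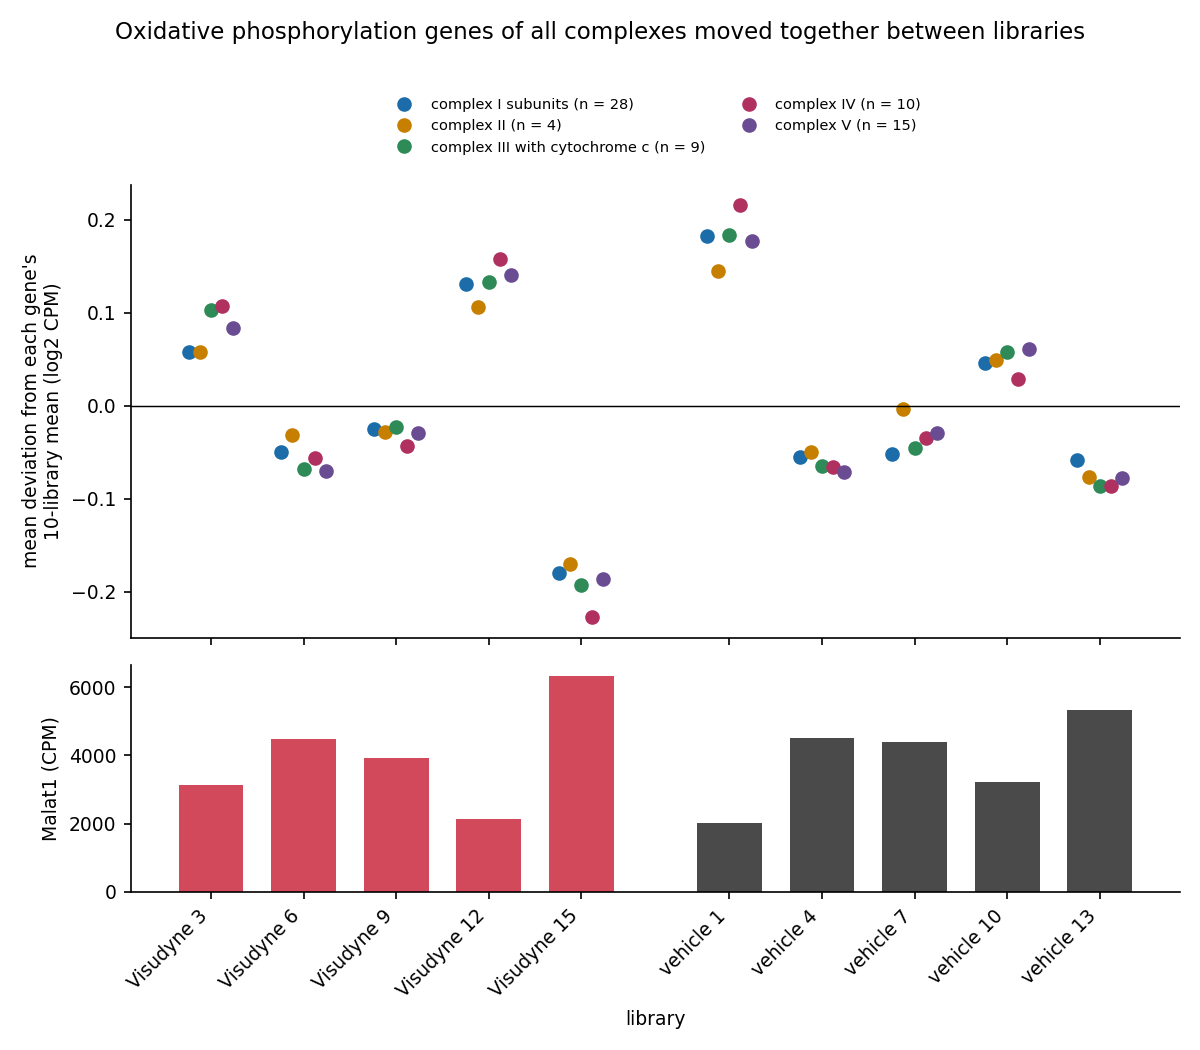
Upper panel: mean deviation (log2 CPM) of the members of each complex from each gene's own mean over 10 libraries, for the 66 members with a mean log2 CPM of at least 5. Lower panel: CPM of Malat1 in the same libraries. All complexes were highest in vehicle 1 and lowest in Visudyne 15, where Malat1 was lowest and highest.

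Malat1, a long noncoding RNA kept in the nucleus, was chosen after its values were seen and ran in nearly the opposite order. It had 3143, 4484, 3933, 2127 and 6334 CPM in Visudyne libraries 3, 6, 9, 12 and 15, against 2017, 4517, 4407, 3212 and 5340 CPM in vehicle libraries 1, 4, 7, 10 and 13. From the library with the most to the one with the least member RNA, Malat1 went from least to most, with a single exchange between vehicle 4 and Visudyne 6. Its range was 3.14-fold, and its group means were 4004 ± 1575 CPM in Visudyne and 3898 ± 1297 CPM in vehicle hippocampus (SD, n = 5 each). Its part in the variation of the members was not tested. With log2 Malat1 CPM as a covariate, an alternative added after the data were seen, the median SE of the 83 members above was 0.034, against 0.073 without it. Since Malat1 was chosen with its opposite order already seen, the smaller SE follows from that choice and is only a description. In this fit 0 of 92 members had an unadjusted p under 0.05 by edgeR, against 5.57% of all genes. In the same fit 63 of 92 fold changes were below 0.

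Between genes, levels were compared as CPM per kilobase, using the median length of each gene's protein-coding transcripts. They spanned 1198-fold, and 28 members had at least 100 CPM per kilobase. Atp5b was highest, with 426 ± 37.4 in Visudyne and 434 ± 36.7 in vehicle hippocampus. Cox8a followed with 372 ± 34.8 in Visudyne and 380 ± 41.4 in vehicle hippocampus, and Cox4i1 with 316 ± 33.4 in Visudyne and 315 ± 29.7 in vehicle hippocampus (SD, n = 5 each). Each of these neighbours in the order exceeded the next by more than the SD of either, whereas Atp5a1, at 267 over all 10 libraries, and Uqcrc1, at 265, did not separate. By this median length, Uqcrc1 was the highest member of complex III. Over all 10 libraries the highest of complex I was then Ndufs1 at 204 CPM per kilobase, of complex II Sdha at 134 and of the assembly factors Ndufaf5 at 17.4. Ndufaf5 modifies the complex I subunit Ndufs7 during assembly.

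**Figure D3:**
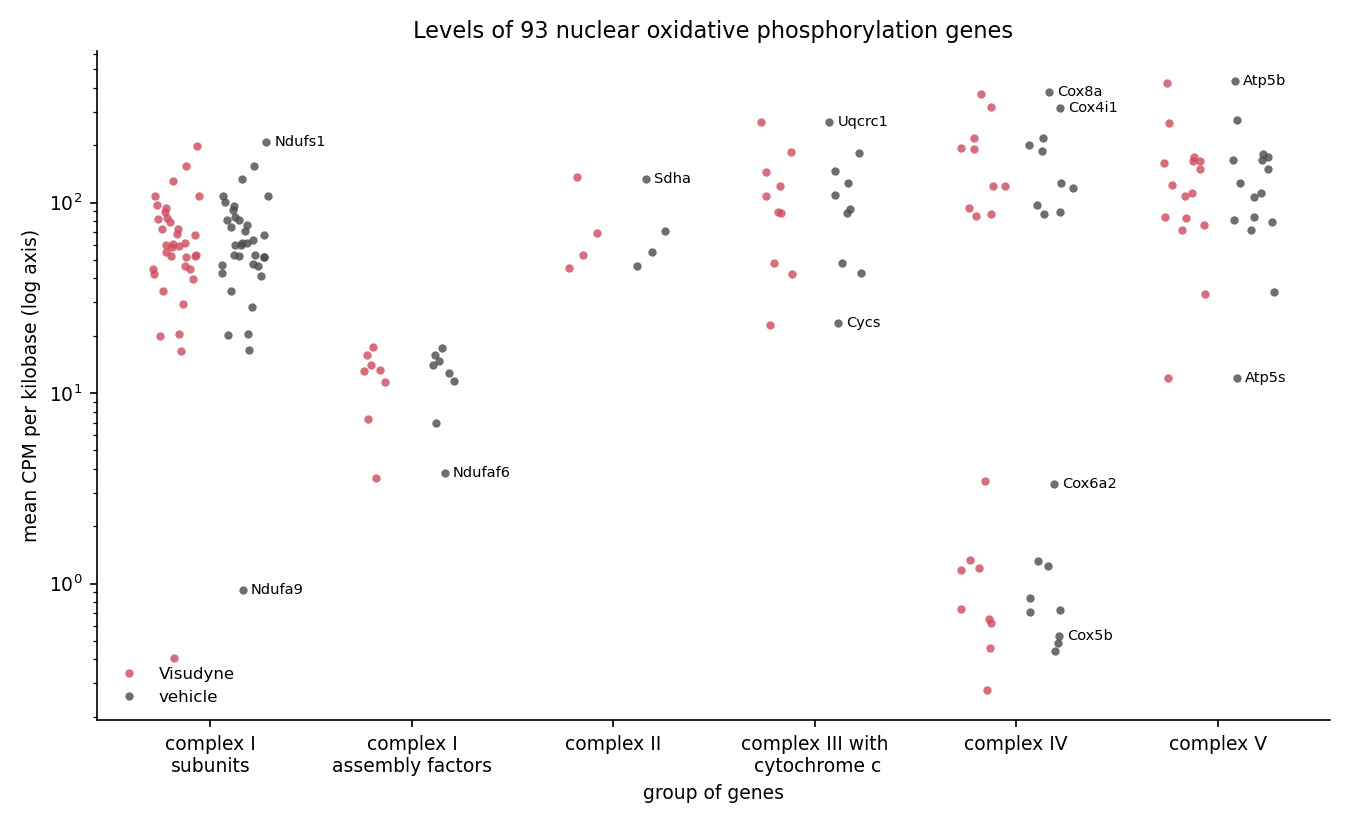
Mean level of each of the 93 members (CPM per kilobase, log axis) in Visudyne and vehicle hippocampus (n = 5 libraries each), by complex, with named genes labelled on the vehicle side. Assembly factors of complex I lay between 3.69 and 17.4 CPM per kilobase, and complex IV divided into a high set, from 86.3 to 376, and a low set led by Cox6a2 at 3.39, over all 10 libraries.

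The order depended on the transcript length used. With the union of all exons in place of the median transcript, Cox8a came first at 334 CPM per kilobase. Atp5a1, the alpha subunit of the catalytic head, came next at 219 and then Atp5b at 194. Ndufs1 and Uqcrc1 have short median lengths, 651 and 533 bases, against unions of 8086 and 4135 bases. By union, other genes were highest in their complexes, at 89.7 CPM per kilobase among complex I subunits and 101 in complex III.

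In 5 complex IV pairs with tissue-specific alternatives, the form used in most tissues made up nearly all of the level. Cox4i2, known from lung and for its response to low oxygen, made up 0.195 ± 0.0453% of Cox4i2 plus Cox4i1 per kilobase in Visudyne and 0.231 ± 0.0820% in vehicle hippocampus (SD, n = 5 each). The heart and skeletal muscle form Cox6a2 made up 1.56 ± 0.213% of Cox6a2 plus Cox6a1 in Visudyne and 1.50 ± 0.232% in vehicle hippocampus. In mouse brain Cox6a2 is also known from parvalbumin interneurons. Cox7a1, another muscle form, made up 1.07 ± 0.131% of Cox7a1 plus Cox7a2 in Visudyne and 1.09 ± 0.245% in vehicle hippocampus. The testis form Cox6b2 made up 0.641 ± 0.186% of Cox6b2 plus Cox6b1 in Visudyne and 0.664 ± 0.109% in vehicle hippocampus. The muscle form Cox8b, the only member that did not pass the filter on low counts, made up 0.0749 ± 0.0387% of Cox8b plus Cox8a in Visudyne and 0.117 ± 0.0384% in vehicle hippocampus, from 1 to 15 counts per library. Ndufa4l2 made up 41.7 ± 19.1% of Ndufa4l2 plus Ndufa4 in Visudyne and 60.1 ± 24.0% in vehicle hippocampus, but both genes had few counts, with Ndufa4 at 0 in vehicle 10, so this share is not read as a level of expression.

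Subunit c of complex V, which forms the rotating ring, is encoded by several genes that give the same mature protein. Atp5g1 made up 22.8 ± 0.808% of Atp5g1 plus Atp5g3 per kilobase in Visudyne and 23.0 ± 0.457% in vehicle hippocampus (SD, n = 5 each). Atp5g3 itself averaged 80.4 ± 6.65 CPM in Visudyne and 81.0 ± 5.22 CPM in vehicle hippocampus, with a log2 fold change of -0.012 ± 0.064 (SE).

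**Figure D4:**
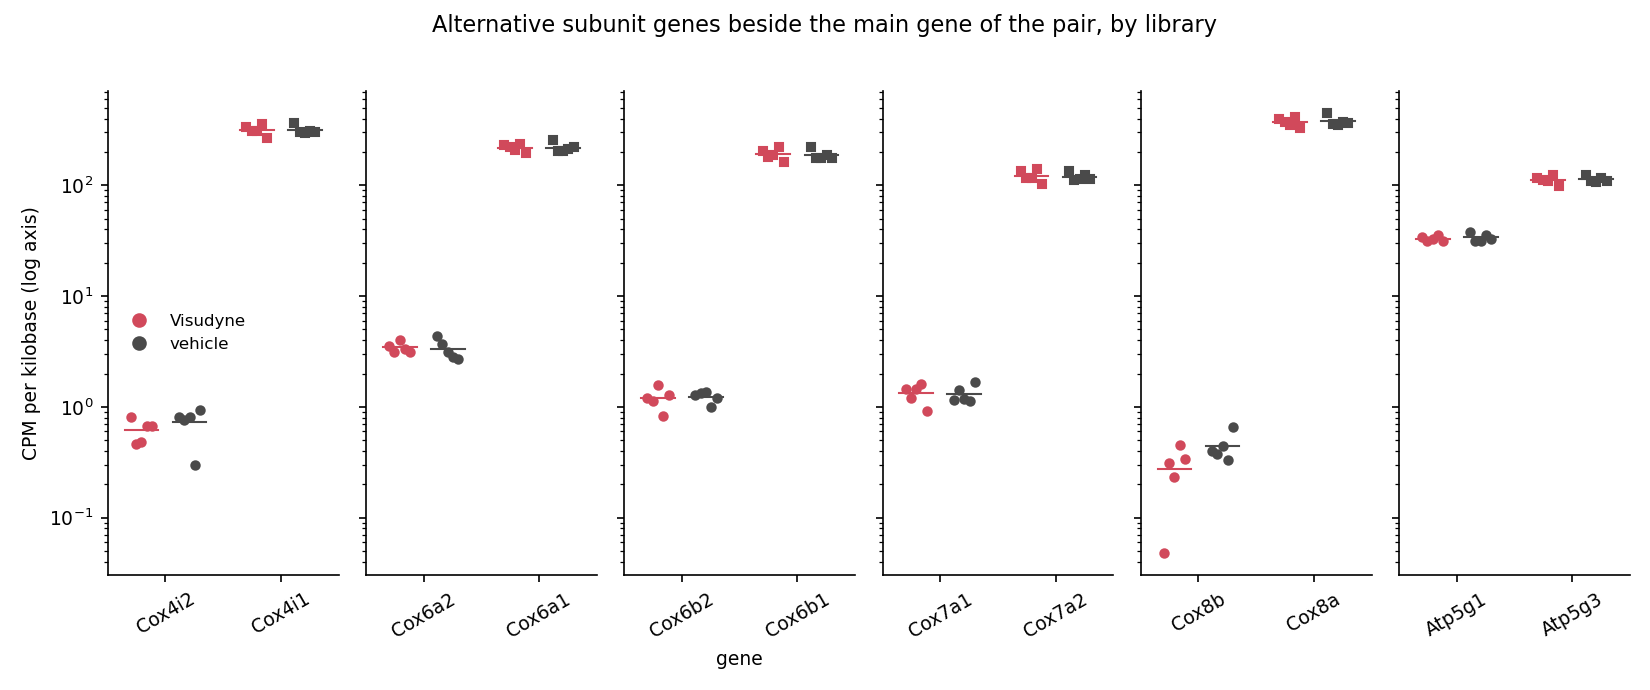
CPM per kilobase (log axis) of each alternative subunit gene, drawn as circles, beside the main gene of its pair, drawn as squares, in each Visudyne and vehicle library, with lines at the group means. In the 5 complex IV pairs the alternative gene lay far below its partner in every library, while Atp5g1 and Atp5g3 were within the same order of magnitude.

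The ratio of such a pair within a library does not depend on normalization. In an exact two-sided permutation test over all assignments of 5 and 5 libraries, whose smallest possible p is 0.0079, none of 6 ratios passed the threshold. Raw p-values ran from 0.238 to 0.905 and adjusted ones from 0.895 to 0.905. The mean log2 ratio of Cox4i2 over Cox4i1 was -9.03 ± 0.332 in Visudyne and -8.86 ± 0.655 in vehicle hippocampus (SD, n = 5 each, exact permutation p = 0.643). That of Cox6a2 over Cox6a1 was -5.73 ± 0.189 in Visudyne and -5.80 ± 0.229 in vehicle hippocampus (SD, n = 5 each, exact permutation p = 0.651). That of Atp5g1 over Atp5g3 was 0.14 ± 0.066 in Visudyne and 0.16 ± 0.037 in vehicle hippocampus (SD, n = 5 each, exact permutation p = 0.579).

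Cells that could carry the alternative forms were followed by lists of markers. The summed level of 13 pericyte and smooth muscle markers was 159 to 203 CPM in Visudyne and 156 to 209 CPM in vehicle hippocampus, and 4 of 13 fold changes were above 0. That of 8 parvalbumin interneuron markers was 559 to 684 CPM in Visudyne and 591 to 650 CPM in vehicle hippocampus, with 5 of 8 above 0. That of 11 striated muscle markers was 6.47 to 11.2 CPM in Visudyne and 7.43 to 10.5 CPM in vehicle hippocampus. The log2 fold changes of the pericyte and smooth muscle markers ran from -0.53 for Myh11 to 0.64 for Anpep, so their sum joins opposite directions. Of the striated muscle markers, 8 of 11 were tested. None of the tested markers passed the test, and none of the markers was at 0 in all libraries. The part of these markers in the ratios was not tested.

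Some members rest on few counts, and their fold changes are loosely bounded. Cox7b2, a testis form of a small complex IV subunit on the minus strand of chromosome 5 (mm10, 71442824 to 71548205), had 0.346, 0.530, 0.321, 0.270 and 0.296 CPM in the Visudyne libraries, against 0.240, 0.309, 0.298, 0.257 and 0.222 CPM in the vehicle libraries. Visudyne 3, 6 and 9 lay above every vehicle library, and the whole range came from 13 to 38 counts per library. The log2 fold change was 0.42 ± 0.25 (SE, unadjusted p = 0.121 and adjusted p = 0.9999 by edgeR), with an interval from -0.13 to 0.97. Cox4i2 had a log2 fold change of -0.24 with an interval from -0.88 to 0.40. For Ndufa4l2, known from the hypoxia response, it was -0.19 with an interval from -0.69 to 0.31.

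Ndufa4, Cox5b and Ndufa9 encode subunits of enzymes present in every respiring cell, yet their counts were far below those of their partners. Ndufa9, an accessory subunit of complex I, had 0, 64, 21, 0 and 85 counts in the Visudyne libraries, against 60, 0, 91, 69 and 133 counts in the vehicle libraries. Both groups contained libraries at 0, with partners such as Ndufs1 at 6475 counts or more. Its log2 fold change of -1.18 had an interval from -3.37 to 1.01. Ndufa4, first assigned to complex I and later to complex IV, had 26, 13, 44, 50 and 25 counts in the Visudyne libraries, against 30, 13, 18, 0 and 34 counts in the vehicle libraries, and its log2 fold change of 0.70 had an interval from -0.61 to 2.02. Cox5b, which pairs with Cox5a in complex IV, had 8, 39, 4, 12 and 27 counts in the Visudyne libraries, against 24, 12, 15, 4 and 42 counts in the vehicle libraries, and its log2 fold change was -0.21 with an interval from -1.45 to 1.03. How the authors' counting treated these genes was not tested, so their levels are not read as expression.

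Other members have near-identical copies, with which reads can be shared. A transcript of another gene matched at 95% identity or more over at least 200 bases for 23 of the annotated genes. For 19 of them a copy also had a row of counts. Most of these copies held few counts, such as 0 to 2 per library for Gm12251 beside 3139 to 4489 for Ndufs3. The processed pseudogene Gm10175 (mm10, chromosome 7, 23946646 to 23947290) matches Atp5g2 at 100% over 645 bases, and had 1707 to 2677 counts per library where Atp5g2 had no row. Gm10175 averaged 36.0 ± 1.47 CPM in Visudyne and 35.6 ± 3.61 CPM in vehicle hippocampus (SD, n = 5 each), and these reads cannot be assigned to either gene. Cycs took 49.7%, 51.8%, 51.8%, 50.7% and 52.3% of its counts with Gm10053 in the Visudyne libraries, against 49.4%, 51.2%, 48.7%, 53.1% and 49.9% in the vehicle libraries. Gm10053 is 99.9% identical to it over 946 bases, so that the level of Cycs is uncertain. Ndufb4, an accessory subunit of complex I, took 39.4% to 45.2% of its counts with the pseudogene Ndufb4c.

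**Figure D5:**
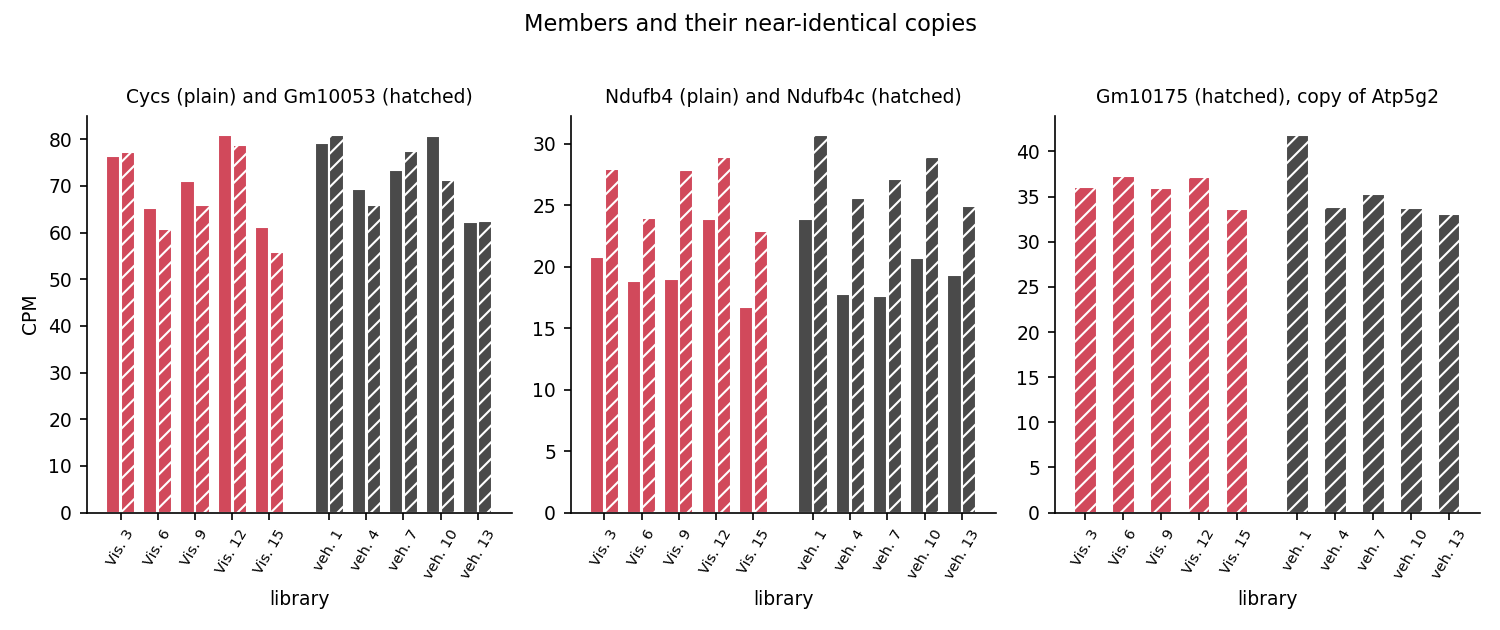
CPM in each Visudyne and vehicle library of Cycs and its near-identical copy Gm10053, of Ndufb4 and its copy Ndufb4c, and of Gm10175, the copy of Atp5g2, which had no row of its own. The shares within each pair stayed between 48.7% and 53.1% for Cycs and between 39.4% and 45.2% for Ndufb4.

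The promoters of the members were also examined. Whether holding a motif goes with the movement of members between libraries was not tested. RefSeq promoter windows (GRCm38.p6) were available for 76 of 93 members, and the 250 bases upstream of the start were searched on both strands. The motif bound by nuclear respiratory factor NRF1, GCGCA and GCGC with any 1 base between them, was in 13 of 76 members (17.1%) and in 6.01% of 16878 genes. The ETS motif CCGGAAG, bound by GABP, was in 14 of 76 (18.4%) and in 10.4% of all genes. The SP1 motif GGGCGG was in 40.8% of members and 47.2% of all genes, and TATAAA in 7.89% of members and 13.5% of all genes. The YY1 motif AAGATGGCG was found in 1 member, Atp5j, and the ERR motif TCAAGGTCA in 1 member, Atp5g3. Median GC content was 57.4% in members and 55.8% in all genes, and a match is a description of the sequence, not of binding.

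Cox6a1, Sdhd and Atp5h hold both motifs and Sdha holds 3 matches to the NRF1 motif, so these promoters are shown to let the arrangement be seen. They are written 5′ to 3′ on the gene's strand and end at the base before the start. Capitals mark matches to the NRF1 motif, and to the ETS motif, which reads CTTCCGG where it lies on the other strand. The windows are chr5:115348959-115349208 for Cox6a1, chr9:50603850-50604099 for Sdhd, chr11:115419920-115420169 for Atp5h and chr13:74350241-74350490 for Sdha, all on the minus strand.
Cox6a1: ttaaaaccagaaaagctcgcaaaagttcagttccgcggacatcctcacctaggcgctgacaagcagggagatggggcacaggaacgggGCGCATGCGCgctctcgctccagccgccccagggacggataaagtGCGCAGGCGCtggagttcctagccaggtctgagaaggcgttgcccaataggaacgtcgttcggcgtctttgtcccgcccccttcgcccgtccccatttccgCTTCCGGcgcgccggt
Sdhd: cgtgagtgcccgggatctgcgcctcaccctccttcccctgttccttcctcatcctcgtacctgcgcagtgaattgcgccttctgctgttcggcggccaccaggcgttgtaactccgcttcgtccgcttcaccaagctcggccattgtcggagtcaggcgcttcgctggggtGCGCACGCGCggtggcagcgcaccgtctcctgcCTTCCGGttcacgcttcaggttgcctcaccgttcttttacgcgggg
Atp5h: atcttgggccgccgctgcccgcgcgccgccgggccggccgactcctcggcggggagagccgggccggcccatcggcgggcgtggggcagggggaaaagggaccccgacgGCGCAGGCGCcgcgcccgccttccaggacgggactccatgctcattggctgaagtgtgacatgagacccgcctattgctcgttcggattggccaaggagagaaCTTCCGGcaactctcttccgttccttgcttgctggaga
Sdha: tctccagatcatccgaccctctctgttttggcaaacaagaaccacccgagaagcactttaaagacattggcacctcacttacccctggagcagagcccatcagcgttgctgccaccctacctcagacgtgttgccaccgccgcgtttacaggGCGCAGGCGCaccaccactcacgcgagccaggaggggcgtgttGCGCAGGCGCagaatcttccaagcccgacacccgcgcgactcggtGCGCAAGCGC

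The 3 genes that hold both motifs belong to complexes IV, II and V. Cox6a1, the main form of its subunit, had 132, 126, 118, 135 and 112 CPM in the Visudyne libraries, against 147, 117, 116, 121 and 126 CPM in the vehicle libraries. The groups overlapped, with a log2 fold change of -0.0047 ± 0.073 (SE, unadjusted p = 0.950 by edgeR). Among the factors that use these motifs, Nrf1 averaged 15.8 CPM in Visudyne and 16.0 CPM in vehicle hippocampus, and Gabpa 24.5 CPM in Visudyne and 24.3 CPM in vehicle hippocampus. The coactivator gene Ppargc1a averaged 44.0 CPM in Visudyne and 43.1 CPM in vehicle hippocampus. In the whole list of 21 regulators of mitochondrial transcription and replication, 10 fold changes were above 0 and 11 below, and none passed the test.

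Genes around the nuclear subunits showed small differences. All 13 protein-coding genes of mitochondrial DNA had fold changes below 0, with a median of -0.074 on the log2 scale, and none passed the test. Their sum was 18149 ± 1034 CPM in Visudyne and 19548 ± 2286 CPM in vehicle hippocampus, and the ratio of that sum to the nuclear members was 2.67 ± 0.304 in Visudyne and 2.82 ± 0.431 in vehicle hippocampus (SD, n = 5 each). These transcripts did not follow the nuclear members from library to library: their sum was highest in vehicle 7, with 22375 CPM, and lowest in Visudyne 12, with 16681 CPM. Mitochondrial ribosomal RNA took 18.8 ± 0.956% of counts in Visudyne and 20.3 ± 1.21% in vehicle libraries, and its part in the fold changes was not tested. Of 41 further assembly factors, 9 were above and 32 below 0, with a median of -0.027.

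The tricarboxylic acid cycle, which supplies NADH and succinate, had 6 of 18 fold changes above 0 and a median of -0.015. Ubiquinone synthesis had 3 of 12 above 0 and a median of -0.029. The carriers that exchange ADP, ATP, phosphate and protons had 0 of 7 above 0 and a median of -0.059. Slc25a4, the adenine nucleotide carrier of excitable tissues, averaged 431 CPM in Visudyne and 449 CPM in vehicle hippocampus. Glycolysis had 5 of 17 above 0 and a median of -0.011, and the hypoxia response 8 of 16 and a median of 0.020. None of the genes in these lists passed the test in either direction.

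Markers of the tissue were present in every library. The summed level of 8 hippocampal neuron markers was 4253 to 4923 CPM in Visudyne and 4590 to 4846 CPM in vehicle hippocampus, with 1 of 8 fold changes above 0 and none called. Choroid plexus markers summed to 31.3 to 61.7 CPM in Visudyne and 33.8 to 229 CPM in vehicle hippocampus, where the highest value was that of vehicle 7. Meningeal and perivascular fibroblast markers summed to 144 to 183 CPM in Visudyne and 62.2 to 138 CPM in vehicle hippocampus, with 12 of 12 above 0, a median of 0.65 and 1 called higher. Their part in the levels of the members was not tested.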

How the data were processed

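Libraries were prepared from total hippocampal RNA with a stranded kit, per the labels' protocols. For each gene and library, the authors deposited 1 estimated count. Salmon, FastQC and mm10 are named in the submitters' processing notes; their versions, settings and the annotation release were not given in the sources used. The estimated counts were whole numbers, so rounding changed nothing. Symbols and coordinates came from GENCODE for the same assembly, and 307 unmatched identifiers held 0.134% of the counts. The kit does not select poly(A) RNA, so nuclear and mitochondrial RNA enter the totals.

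All 10 libraries entered edgeR 4.0.16 in R 4.3.3 (quasi-likelihood F-test, TMM, default filter on low counts, 19093 genes, threshold 0.05), with limma 3.58.1 and DESeq2 1.42.0 as alternatives. SEs and 95% intervals came from the F statistics. The procedure was tested on simulated data in which each gene was drawn independently. Such data do not hold the variation that members shared between libraries. Correlations used log2 CPM with a prior count of 2, and the ratios a prior count of 0.5. Counting error is small for members of high count and matters most for the 10 with a median count under 150.

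Members and lists were chosen with earlier results of these data known. Named genes were, within each complex, the pair of smallest p in each direction and the highest per kilobase, plus alternative subunit genes named whatever their values; others are examples chosen after their values were seen. Atp5if1 was not matched under that symbol and is not analysed here.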

Additional observations from a re-analysis of the deposited data

Results flagged for a closer look

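In groups of 5 libraries, 104 sets of values were checked for a library far from the others, and 8 stood out, where chance gives about 1 in 20. Vehicle 1 stood above the other vehicle libraries in 4 of them: Cox4i1 at 274.1 CPM, where the others had 222 to 231 CPM, Cox8a at 249 CPM, where they had 192 to 206 CPM, Uqcrh at 97.8 CPM, where they had 81.4 to 85.6 CPM, and the summed level of complex IV at 1373 CPM, where they had 1118 to 1188 CPM. Sdhc was low in Visudyne 15, at 38.1 CPM, where the other Visudyne libraries had 43.5 to 45.7 CPM. These are the libraries in which members of every complex were high and low.

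The other 3 rest on low counts. Cox7b2 was high in Visudyne 6, at 0.530 CPM, where the other Visudyne libraries had 0.270 to 0.346 CPM. Cox4i2 was low in vehicle 10, at 0.217 CPM, where the other vehicle libraries had 0.560 to 0.681 CPM. The log2 ratio of Ndufa4l2 over Ndufa4 was 6.19 in vehicle 10, where Ndufa4 had 0 counts, and 0.27 to 1.72 in the other vehicle libraries.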

How the results depend on the processing

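No paired analysis was run, because the labels state no pairing and the groups share no replicate number. The counts of 0 members called higher and 0 called lower held under all 21 alternatives. Of 39 named members, 27 changed sign in at least 1 alternative, in 79 of 812 values, none past the threshold. These counts include the omission of vehicle 1 and Visudyne 15 together, in which some members changed sign that did so nowhere else. Leaving out each sample in turn moved the log2 fold change of Atp5b from -0.061 to 0.022, Atp5g1 -0.064 to 0.0059, Atp5g3 -0.043 to 0.027, Atp5h -0.10 to 0.0023, Atp5j2 -0.031 to 0.054, Cox4i1 -0.038 to 0.065, Cox6a1 -0.032 to 0.060, Cox6a2 -0.022 to 0.16, Cox6b1 -0.024 to 0.093, Cox6b2 -0.16 to 0.070, Cox7a1 -0.052 to 0.13, Cox7a2 -0.014 to 0.084, Cox8a -0.068 to 0.038, Cyc1 -0.016 to 0.049, Cycs -0.086 to 0.0050, Ndufaf5 -0.022 to 0.029, Sdhb -0.068 to 0.0050, Sdhd -0.081 to 0.0056, Uqcrc1 -0.026 to 0.067 and Uqcrh -0.025 to 0.064. The differences in log2 ratio ran from -0.016 to 0.13 for Cox6a2 over Cox6a1, -0.20 to 0.088 for Cox6b2 over Cox6b1 and -0.10 to 0.089 for Cox7a1 over Cox7a2. Without vehicle 1 and Visudyne 15 together, a choice that itself fixes the direction of the shift, the fold change became 0.066 for Atp5b, 0.021 for Atp5f1, 0.027 for Atp5g1, 0.070 for Atp5g3, 0.048 for Atp5h, 0.098 for Cox6a1, 0.048 for Cox7a2l, 0.082 for Cox8a, 0.042 for Cycs, 0.021 for Ndufaf3, 0.0024 for Ndufs1, 0.048 for Sdhb, 0.033 for Sdhc, 0.044 for Sdhd, 0.029 for Uqcrb and 0.041 for Uqcrc2. Cox6a1 became 0.0017 with upper-quartile factors, 0.00705 with a filter of 1 CPM in 5 samples, 0.022 with sample number as covariate and 0.000504 with Malat1. Sample number also gave 0.0017 for Atp5b, 0.0083 for Atp5g3 and 0.000735 for Cox8a, and limma voom -0.0024 for Cox7a1. The cause was not tested. Adding the counts of 27 near-identical copies to the members left 70 of 92 fold changes below 0. Adding copies, the omission of both libraries and the Malat1 covariate were chosen after seeing the data. Values of the 10 members with a median count under 150 rest on few counts, and why their counts were low was not tested.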
